A study of Homo sapiens with 12 samples.

Results

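The genes described here import the precursor of glutathione, build the tripeptide, keep it reduced, spend it on peroxides and break it down. They are 10 of the 61510 genes in the deposited tables, listed by symbol for their place in the pathway, with earlier results of these data known. All 10 passed the filter on low counts and were among the 15653 genes tested. SLC7A11 encodes the light chain of the cystine and glutamate exchanger xCT. GCLC and GCLM encode the catalytic and the modifier subunit of glutamate-cysteine ligase, GSS encodes glutathione synthetase, and GSR encodes glutathione reductase. GPX1 and GPX2 encode glutathione peroxidases. GGT1 encodes a gamma-glutamyltransferase of the cell surface, and CHAC1 and CHAC2 encode gamma-glutamylcyclotransferases that cleave glutathione inside the cell.

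Glutathione is made in the cytosol from glutamate, cysteine and glycine, and the supply of cysteine, mostly imported as cystine, together with glutamate-cysteine ligase usually limits the rate. Glutathione peroxidases oxidise it while reducing peroxides, and glutathione reductase returns the oxidised disulfide to the thiol with NADPH. In human cells many of these genes, among them SLC7A11, GCLC, GCLM, GSR and GPX2, are known targets of NRF2, which acts through antioxidant response elements (AREs). SLC7A11 and CHAC1 are also known targets of ATF4, the effector of the integrated stress response.

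The cells were A549/DDP, a line selected for cisplatin resistance from A549 lung adenocarcinoma cells and kept in medium with 1 µg/ml cisplatin, and their total RNA was sequenced. All 4 groups shared that background and that medium. One line, shNRF2, carried a short hairpin RNA against NRF2, the product of NFE2L2, and the other, shNC, a control hairpin. At 70% confluence each line received 4 µM gambogenic acid (GNA), a xanthone of gamboge resin, or its vehicle DMSO, and cells were collected after 24 h. This gave 3 libraries each of shNRF2 with GNA, shNRF2 with DMSO, shNC with GNA and shNC with DMSO. The labels do not say whether a line was 1 clone or a pool, or whether the 3 libraries of a group were separate cultures, so p-values measure only the spread between these libraries. The RNA is bulk, so fewer cells of a type and less RNA per cell cannot be told apart.

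Library totals ran from 12848607 to 17192671 counts. NFE2L2, the target of the hairpin, had 46.2, 47.5 and 43.6 CPM in shNRF2 GNA (CPM, counts relative to a common library total after TMM scaling) and 47.9, 49.4 and 53.3 CPM in shNRF2 DMSO, against 89.0, 83.03 and 90.3 CPM in shNC GNA and 81.6, 77.9 and 74.4 CPM in shNC DMSO. Every shNRF2 library was below every shNC library, with a log2 fold change of -0.93 ± 0.064 (SE) under GNA and -0.64 ± 0.064 in DMSO. Of 6 epithelial markers 5 were tested, with summed levels of 10520 to 11120 CPM in shNRF2 GNA, 16490 to 16950 CPM in shNRF2 DMSO, 11210 to 11510 CPM in shNC GNA and 16810 to 17840 CPM in shNC DMSO, while KRT19 had at most 2 counts. KRT8 and KRT18 carried most of that sum and fell with GNA in both lines, whereas CDH1 and KRT7 rose with GNA in shNC. In both treatments CDH1 was higher and KRT7 lower in shNRF2 than in shNC. Reads of mitochondrial genes took 8.04% to 8.14% of counts in shNRF2 GNA, 9.48% to 10.5% in shNRF2 DMSO, 8.61% to 8.98% in shNC GNA and 8.00% to 9.72% in shNC DMSO. The part of either in the results was not tested. The 5 alveolar type 2 markers, including SFTPB and SFTPC, summed to at most 0.62 CPM in any library, and leukocyte and endothelial markers to at most 0.74 CPM. The 4 fibroblast markers summed to 7.13 to 9.96 CPM, mostly COL1A1, which passed in no contrast. LUM, at 0.739 to 3.44 CPM, fell with GNA in both lines and was lower in shNRF2 than in shNC under GNA, and its part in the results was not tested. Library shNC DMSO 1 stood apart within its group: the chi-square per degree of freedom was 8.05 and 6.31 against its 2 partners and 3.74 between those, and it was 2.27 to 5.31 within the other groups.

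Promoter windows are shown for genes whose levels differed between the lines or between treatments. RefSeq windows on GRCh38.p14, from 250 bases before to 50 bases after a gene's start, were held for 7 of the 10 genes, in 9 windows. They were searched on both strands for TGACNNNGC, the core of the ARE, and for TGATGNAA, a core of the C/EBP-ATF response element bound by ATF4. The first was in 13.3% and the second in 3.62% of all 35116 windows of the same length in the table, and no window shown held both. The 4 windows below are the catalytic and the modifier subunit gene of glutamate-cysteine ligase, the peroxidase gene that differed most between the lines, and the gene that rose most with GNA. Each is written 5′ to 3′ on the gene's strand, with motif matches in capitals. All 3 matches lie on the strand opposite to the gene, so the capitals read as the reverse complement of the motif.
GCLM: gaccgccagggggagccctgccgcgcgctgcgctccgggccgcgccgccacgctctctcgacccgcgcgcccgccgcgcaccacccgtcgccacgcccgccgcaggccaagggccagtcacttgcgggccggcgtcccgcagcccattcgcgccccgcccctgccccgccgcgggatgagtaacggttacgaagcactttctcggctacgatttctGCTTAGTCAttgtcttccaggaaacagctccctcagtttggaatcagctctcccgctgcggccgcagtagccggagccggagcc
GPX2: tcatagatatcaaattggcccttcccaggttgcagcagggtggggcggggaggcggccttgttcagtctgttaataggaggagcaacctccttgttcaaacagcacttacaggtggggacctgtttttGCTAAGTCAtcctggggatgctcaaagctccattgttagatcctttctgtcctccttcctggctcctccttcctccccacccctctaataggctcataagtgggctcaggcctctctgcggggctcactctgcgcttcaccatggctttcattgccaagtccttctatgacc
CHAC1: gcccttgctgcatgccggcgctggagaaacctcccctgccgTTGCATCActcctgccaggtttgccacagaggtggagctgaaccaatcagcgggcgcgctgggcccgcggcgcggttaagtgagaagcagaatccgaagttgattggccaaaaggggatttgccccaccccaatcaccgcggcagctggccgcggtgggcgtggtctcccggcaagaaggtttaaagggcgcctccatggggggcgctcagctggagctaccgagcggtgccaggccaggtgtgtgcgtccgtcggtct
GCLC: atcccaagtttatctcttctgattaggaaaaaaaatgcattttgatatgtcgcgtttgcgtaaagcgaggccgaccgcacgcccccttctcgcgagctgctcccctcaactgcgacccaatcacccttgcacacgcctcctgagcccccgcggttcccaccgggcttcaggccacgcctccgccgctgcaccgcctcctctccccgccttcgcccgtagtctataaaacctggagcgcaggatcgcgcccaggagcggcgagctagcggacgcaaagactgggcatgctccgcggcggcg
These are GCLM at chr1:93909381-93909680 (minus strand), GPX2 at chr14:64942696-64942995 (minus strand), CHAC1 at chr15:40953221-40953520 (plus strand) and GCLC at chr6:53545052-53545351 (minus strand).

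GCLM held 1 ARE core, TGACTAAGC, at bases -34 to -26 from the start, and GPX2 held 1, TGACTTAGC, at bases -122 to -114. CHAC1 held 1 match to TGATGNAA, TGATGCAA, at bases -209 to -202, and no ARE core. The GCLC window held neither motif, nor did those of GPX1 and CHAC2. The second of the GGT1 windows held an ARE core, TGACCCAGC, at bases -29 to -21. A match is a description of the letters and not a measured binding site, and these windows do not reach distal elements.

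**Figure D1:**
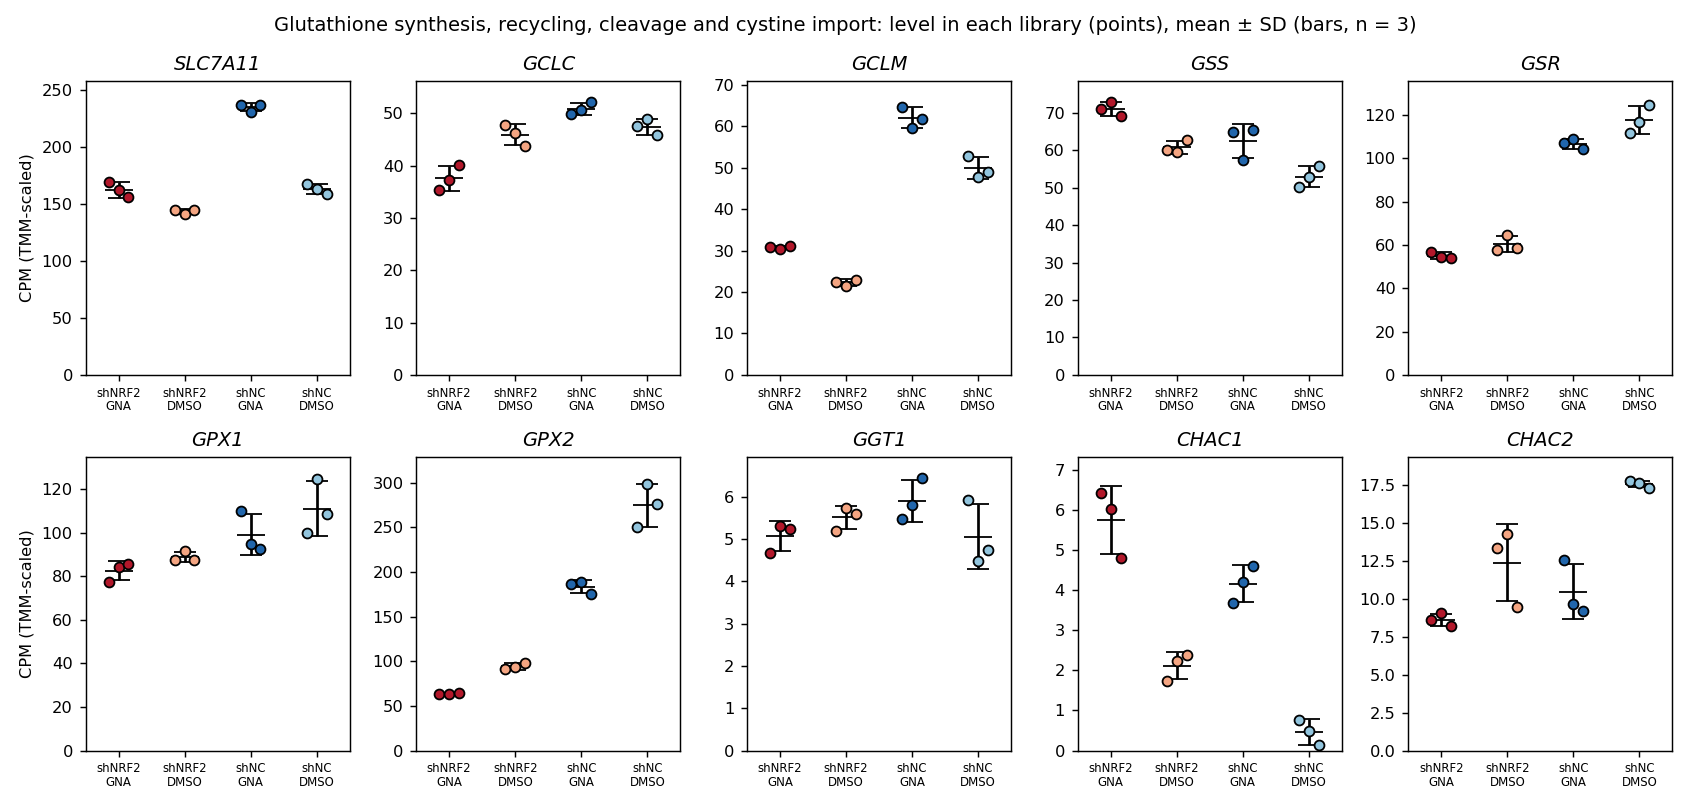
Level of each of the 10 genes in each library, in CPM on TMM-scaled totals, with a separate linear axis from 0 for each gene. Points are libraries and bars are mean ± SD of 3. GCLM, GSR and GPX2 lie lower in both shNRF2 groups than in both shNC groups, SLC7A11 stands out in shNC GNA, and CHAC1 is lowest in shNC DMSO.

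Across the 10 genes, with GNA in shNRF2 cells 4 rose and 3 fell at an adjusted p under 0.05 (edgeR's quasi-likelihood test, Benjamini-Hochberg over all genes tested), where 16.7% of all genes tested rose and 17.0% fell. With GNA in shNC cells 4 rose and 2 fell, where 14.6% of all genes rose and 16.1% fell. Between the lines, 1 of the 10 was higher and 6 were lower in shNRF2 than in shNC under GNA, where 12.8% of all genes were higher and 13.3% lower. In DMSO 2 were higher and 6 lower, where 16.8% of all genes were higher and 18.3% lower. The response to GNA was more negative in shNRF2 than in shNC for 3 of the 10, where 3.24% of all genes differed that way. It was more positive for 0 of the 10 in edgeR, where 3.58% of all genes were, a share so small that 0 of 10 says little. The count was also 0 at an unadjusted p under 0.05 and with DESeq2 or limma, to which that share does not apply.

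The median log2 fold change of the 10 genes was -0.11 with GNA in shNRF2 and 0.17 with GNA in shNC, beside 0.0098 and 0.017 for all genes tested. Between the lines it was -0.35 under GNA and -0.25 in DMSO, beside 0.013 and 0.011 for all genes. The comparisons share groups: each DMSO group is the baseline of a GNA response and a side of the DMSO contrast, so their values are given side by side and no overlap is drawn from them. With unadjusted library totals in place of TMM scaling, 61.6% of the genes called with GNA in shNRF2 were higher, against 49.6% with TMM, and in shNC 69.7%, against 47.5%. Between the lines in DMSO that share was 58.7% with library totals, against 47.9% with TMM, and for the difference of responses it was 38.1%, against 52.5% with TMM.

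**Figure D2:**
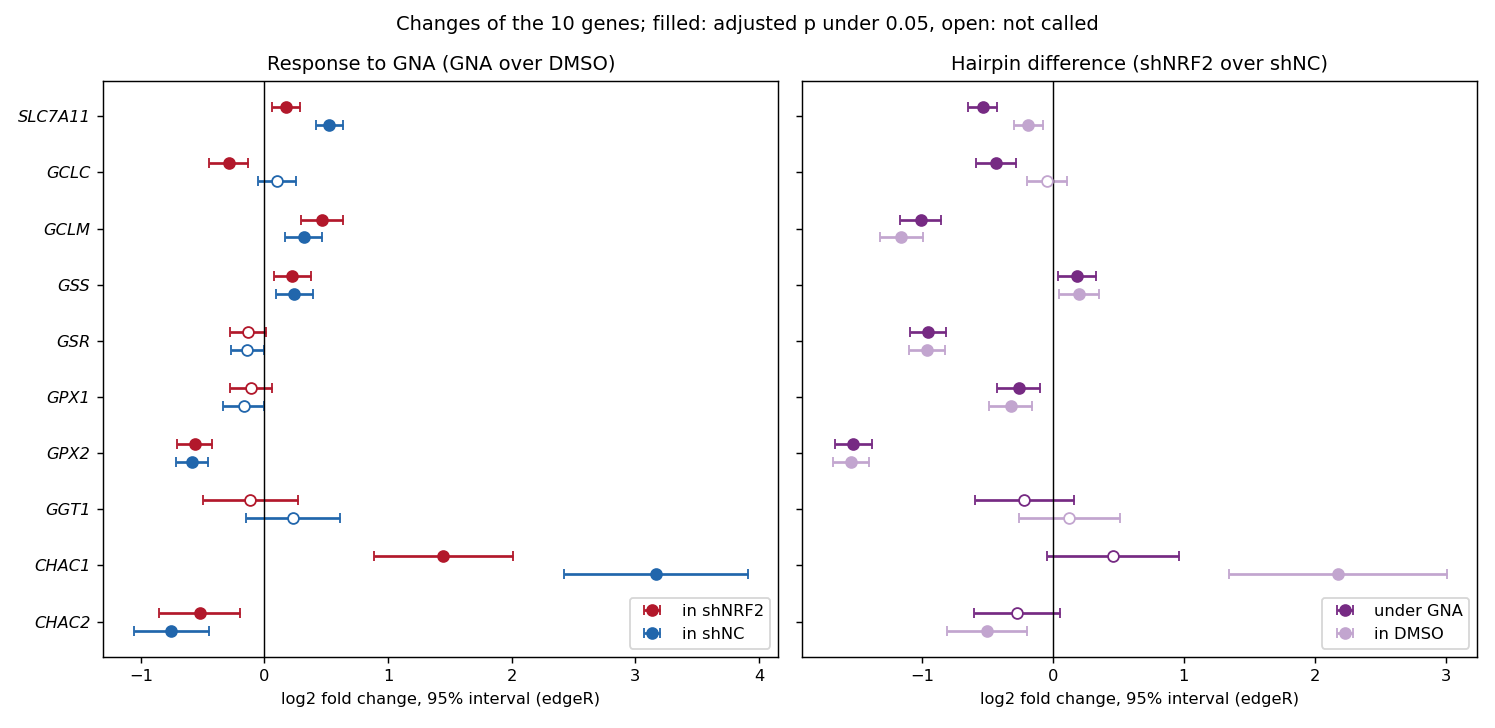
Log2 fold changes of the 10 genes with 95% intervals (edgeR, 8 residual degrees of freedom): GNA over DMSO in each line on the left, shNRF2 over shNC in each treatment on the right. Filled points passed an adjusted p of 0.05. GPX2, GCLM and GSR lie farthest to the left between the lines, and CHAC1 farthest to the right with GNA.

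The cystine importer gene SLC7A11, on chromosome 4 at 138164097 to 138242349 (minus strand, GENCODE 29 on GRCh38, as for all genes below), had 169.5, 162 and 156 CPM in shNRF2 GNA and 145, 141 and 145 CPM in shNRF2 DMSO. The shNC line had 237, 231 and 237 CPM with GNA and 168, 164 and 159 CPM with DMSO. The 3 shNC GNA libraries were above all the others, and the shNRF2 GNA libraries overlapped with those of shNC DMSO. SLC7A11 rose with GNA in shNRF2 by 0.18 ± 0.049 on the log2 scale (SE, edgeR adjusted p = 0.00551) and in shNC by 0.52 ± 0.048 (edgeR adjusted p = 2.38e-09). Between the lines it was lower in shNRF2, with a log2 fold change of -0.53 ± 0.048 under GNA (edgeR adjusted p = 1.87e-09) and of -0.19 ± 0.049 in DMSO (edgeR adjusted p = 0.00369).

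The response of SLC7A11 to GNA was itself smaller in shNRF2, with a difference of log2 responses of -0.35 ± 0.068 (edgeR adjusted p = 0.00188). An antisense gene, SLC7A11-AS1, overlaps SLC7A11 on the other strand over 138164097 to 138178177. Its level was 2.34 to 4.22 CPM in shNRF2 GNA, 2.07 to 2.68 CPM in shNRF2 DMSO, 3.02 to 3.75 CPM in shNC GNA and 1.17 to 1.59 CPM in shNC DMSO. The sources used here do not say whether counting used strand, so reads of the pair cannot be told apart where they overlap.

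SLC3A2, the heavy chain that carries SLC7A11 and other amino acid transporters to the membrane, averaged 824.5 ± 14.0 CPM in shNRF2 GNA and 376 ± 24.5 CPM in shNRF2 DMSO, and 595 ± 34.7 CPM in shNC GNA and 317 ± 11.46 CPM in shNC DMSO (SD, n = 3 each). Unlike the light chain, it was higher in shNRF2 than in shNC, by a log2 fold change of 0.47 ± 0.051 under GNA (edgeR adjusted p = 5.33e-08) and of 0.24 ± 0.052 in DMSO (edgeR adjusted p = 0.000508). With GNA it rose by 1.13 ± 0.052 in shNRF2 and by 0.91 ± 0.052 in shNC. The difference of these responses, 0.23 ± 0.072, did not pass (edgeR adjusted p = 0.0594).

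The gene of the modifier subunit, GCLM (chromosome 1, 93885205 to 93909456, minus strand), whose promoter window with an ARE core is printed above, had 30.9, 30.5 and 31.1 CPM in shNRF2 GNA and 22.5, 21.4 and 23.0 CPM in shNRF2 DMSO. The shNC libraries had 64.8, 59.7 and 61.9 CPM with GNA and 52.9, 47.7 and 49.1 CPM with DMSO. All 4 groups stood apart, and each shNRF2 library was below each shNC library. GCLM was lower in shNRF2 than in shNC, with a log2 fold change of -1.01 ± 0.068 under GNA (SE, edgeR adjusted p = 5.87e-12) and of -1.16 ± 0.071 in DMSO (edgeR adjusted p = 9.06e-13).

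GCLM rose with GNA in both lines, by 0.46 ± 0.074 on the log2 scale in shNRF2 (edgeR adjusted p = 1.44e-05) and by 0.32 ± 0.065 in shNC (edgeR adjusted p = 0.00042). The difference of the responses was 0.15 ± 0.099, with a 95% interval of -0.079 to 0.38 (edgeR adjusted p = 0.443). Under GNA the shNRF2 line still had less GCLM than the shNC line had in DMSO.

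The gene of the catalytic subunit, GCLC (chromosome 6, 53497341 to 53616970, minus strand), had 35.4, 37.4 and 40.1 CPM in shNRF2 GNA and 47.8, 46.2 and 43.9 CPM in shNRF2 DMSO. In shNC it had 49.95, 50.7 and 52.2 CPM with GNA and 47.7, 48.9 and 45.9 CPM with DMSO. The lines overlapped in DMSO, with a log2 fold change of -0.046 ± 0.067 and a 95% interval of -0.20 to 0.11 (edgeR adjusted p = 0.641), and were apart under GNA, at -0.44 ± 0.067 (edgeR adjusted p = 1.64e-05).

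GCLC fell with GNA in shNRF2, with a log2 fold change of -0.29 ± 0.068 (edgeR adjusted p = 0.00156), while in shNC the change was 0.10 ± 0.066 (edgeR adjusted p = 0.268). The responses differed by -0.39 ± 0.095 (edgeR adjusted p = 0.0117). In shNC the call depended on scaling: with library totals GCLC passed at 0.20 (edgeR adjusted p = 0.0194), and it passed on log2(FPKM + 1) with limma at 0.17 (adjusted p = 0.0332). Its window printed above held no ARE core, and other transcripts annotated inside the GCLC locus, AL033397.1 and AL033397.2, share part of its span.

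**Figure D3:**
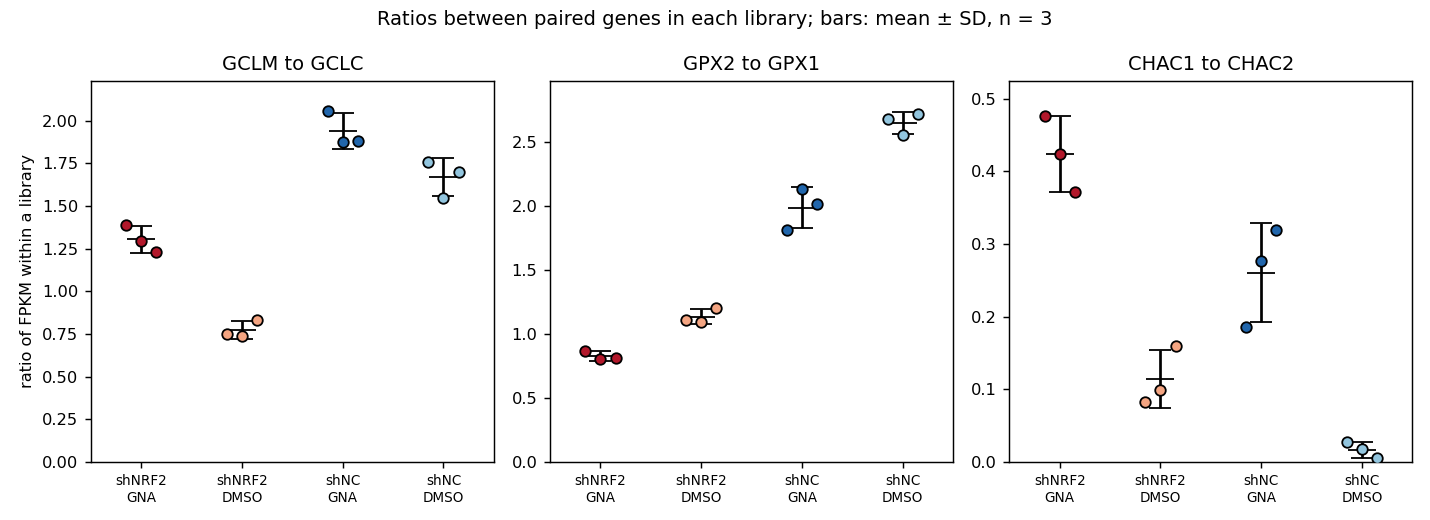
Ratio of FPKM, which is per length, between paired genes within each library: GCLM to GCLC, GPX2 to GPX1 and CHAC1 to CHAC2. Points are libraries and bars are mean ± SD of 3 on linear axes from 0. GCLM to GCLC is lowest in shNRF2 DMSO at 0.773, GPX2 to GPX1 falls below 1 in shNRF2 GNA only, at 0.827, and CHAC1 to CHAC2 is lowest in shNC DMSO at 0.0166.

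Because FPKM (fragments per kilobase and per sequenced total) is per length, the balance of both subunit genes can be read within a library, free of scaling between libraries. The ratio of GCLM to GCLC was 1.31 ± 0.080 in shNRF2 GNA and 0.773 ± 0.052 in shNRF2 DMSO, and 1.94 ± 0.105 in shNC GNA and 1.67 ± 0.109 in shNC DMSO (SD, n = 3 each). In shNRF2 DMSO the catalytic subunit gene was the higher per length in all 3 libraries, with ratios of 0.749, 0.736 and 0.833. In the other groups the modifier subunit gene was the higher per length. That order rests on the fixed lengths behind FPKM, 8618 bases for GCLC and 5426 for GCLM. In counts GCLC averaged above GCLM in shNRF2 GNA too, at 570 against 465. GNA multiplied the ratio by 1.69 in shNRF2 and by 1.16 in shNC. Groups did not overlap in any of the 4 comparisons, and each gave an exact two-sided permutation p of 0.1, the smallest that 3 libraries against 3 can give.

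GSS, the gene of the second and last step of synthesis, on chromosome 20 at 34928433 to 34956027 (minus strand), had 71.1, 72.9 and 69.1 CPM in shNRF2 GNA and 60.2, 59.6 and 62.7 CPM in shNRF2 DMSO. The shNC libraries had 64.8, 57.3 and 65.5 CPM with GNA and 50.1, 53.0 and 55.7 CPM with DMSO. The compared groups did not overlap in any of the 4 contrasts. GSS rose with GNA by 0.22 ± 0.064 on the log2 scale in shNRF2 (edgeR adjusted p = 0.00757) and by 0.24 ± 0.065 in shNC (edgeR adjusted p = 0.00572).

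While SLC7A11 and GCLM were lower in shNRF2 than in shNC in both treatments, GSS was higher, by 0.18 ± 0.064 on the log2 scale under GNA (edgeR adjusted p = 0.032) and by 0.20 ± 0.065 in DMSO (edgeR adjusted p = 0.0186). Both calls were lost on leaving out single libraries. Under GNA the adjusted p was 0.217 without shNC GNA 2, 0.0773 without shNRF2 GNA 1 and 0.111 without shNRF2 GNA 2, and in DMSO it was 0.0989 without shNC DMSO 1 and 0.0648 without shNRF2 DMSO 3 (edgeR).

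GSR (chromosome 8, 30678061 to 30727999, minus strand), whose product regenerates reduced glutathione, had 56.8, 54.5 and 54.1 CPM in shNRF2 GNA and 57.8, 64.7 and 58.7 CPM in shNRF2 DMSO. In shNC it had 106.9, 109 and 104 CPM with GNA and 112, 117 and 124 CPM with DMSO. The lines did not overlap. GSR was lower in shNRF2, with a log2 fold change of -0.96 ± 0.060 under GNA (SE, edgeR adjusted p = 1.69e-12) and of -0.96 ± 0.060 in DMSO (edgeR adjusted p = 1.03e-12).

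With GNA, GSR changed by -0.13 ± 0.062 in shNRF2, with a 95% interval of -0.28 to 0.011 (edgeR adjusted p = 0.105), and by -0.14 ± 0.057 in shNC, with an interval of -0.27 to -0.0076 (edgeR adjusted p = 0.0659). Neither passed, although the GNA libraries lay below the DMSO libraries in both lines. Without library shNC DMSO 1 the change in shNC was -0.17 and passed (edgeR adjusted p = 0.0295).

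Of the peroxidase genes, GPX2 (chromosome 14, 64939152 to 64942905, minus strand), an enzyme best known from the gut epithelium, lay farthest below its shNC level among the 10 genes in both treatments. Its level was 63.0, 63.2 and 65.1 CPM in shNRF2 GNA and 91.0, 93.6 and 98.6 CPM in shNRF2 DMSO. In shNC it was 186, 189 and 175 CPM with GNA and 251, 298 and 276 CPM with DMSO. All 4 groups stood apart, with shNRF2 GNA the lowest, then shNRF2 DMSO, then shNC GNA, and shNC DMSO the highest.

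The log2 fold change of GPX2 between the lines was -1.52 ± 0.061 under GNA (SE, edgeR adjusted p = 7.14e-17) and -1.54 ± 0.059 in DMSO (edgeR adjusted p = 3.61e-17). With GNA it fell by 0.56 ± 0.062 on the log2 scale in shNRF2 (edgeR adjusted p = 3.95e-08) and fell by 0.58 ± 0.057 in shNC (edgeR adjusted p = 7.22e-09). The responses differed by 0.019 ± 0.084, with a 95% interval of -0.17 to 0.21 (edgeR adjusted p = 0.939). Like GCLM, GPX2 has an ARE core in its printed window and was lower in shNRF2, but it fell with GNA where GCLM rose. GGT1 also has an ARE core and passed in no comparison. The windows of GPX1, CHAC2, GCLC and CHAC1 held none, and no window was held for SLC7A11, GSS and GSR. GPX1 and CHAC2 were lower in shNRF2 in DMSO, and GPX1 and GCLC under GNA, while CHAC1 was higher in shNRF2 in DMSO. The part of the motif in these levels was not tested. GPX2 lies within the span of CHURC1 on the opposite strand, and CHURC1 was also lower in shNRF2, with log2 fold changes of -0.46 ± 0.084 under GNA and -0.41 ± 0.084 in DMSO.

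GPX1 (chromosome 3, 49357171 to 49358600, minus strand), the widely expressed cytosolic peroxidase, had 77.6, 84.2 and 85.8 CPM in shNRF2 GNA and 87.5, 91.7 and 87.5 CPM in shNRF2 DMSO. The shNC line had 109.8, 94.9 and 92.8 CPM with GNA and 99.9, 125 and 108 CPM with DMSO. The lines did not overlap within a treatment, and the GNA and DMSO libraries of shNC did. GPX1 was lower in shNRF2, with a log2 fold change of -0.26 ± 0.073 under GNA (SE, edgeR adjusted p = 0.00788) and of -0.32 ± 0.072 in DMSO (edgeR adjusted p = 0.000919).

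For GPX1 the call between the lines under GNA was lost without shNC GNA 1 (edgeR adjusted p = 0.0765) and without shNRF2 GNA 1 (edgeR adjusted p = 0.0591). With GNA, GPX1 changed by -0.11 ± 0.073 in shNRF2 (edgeR adjusted p = 0.288) and by -0.17 ± 0.071 in shNC (edgeR adjusted p = 0.0787). The change in shNC passed at -0.24 without shNC DMSO 1 (edgeR adjusted p = 0.0132) and at -0.245 without shNC GNA 1 (edgeR adjusted p = 0.0124). GENCODE 29 types GPX1 as a polymorphic pseudogene.

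**Figure D4:**
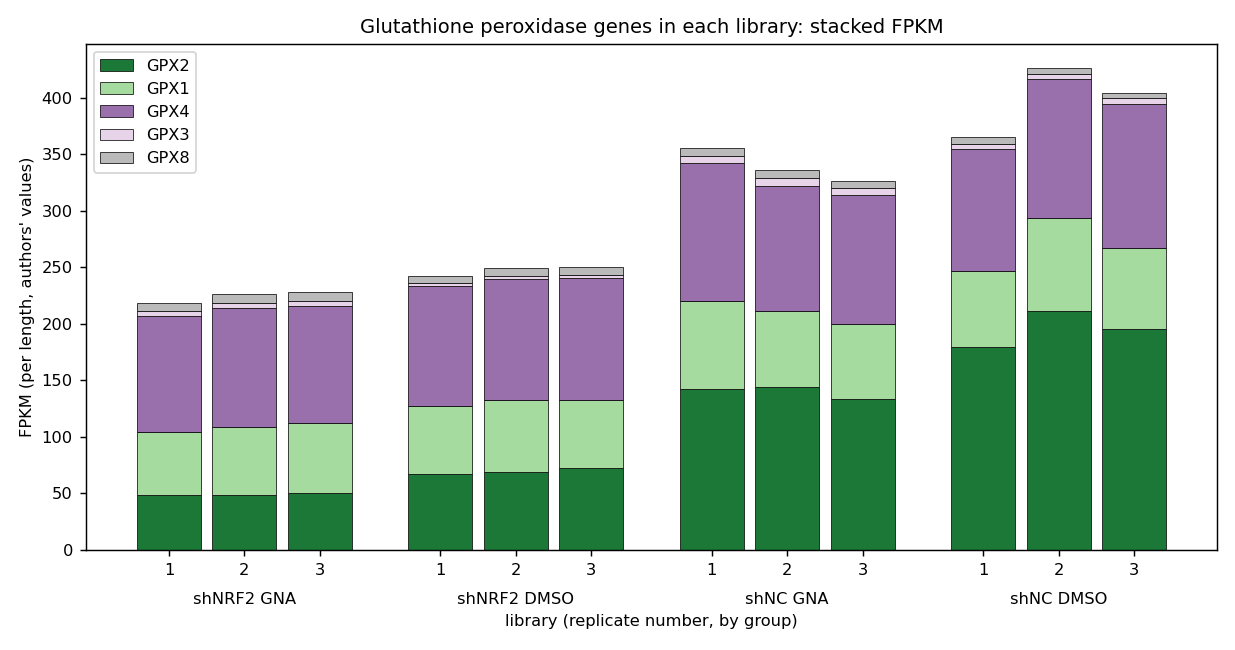
FPKM of the glutathione peroxidase genes GPX2, GPX1, GPX4, GPX3 and GPX8, stacked for each of the 12 libraries. The sum is lowest in shNRF2 GNA, at 219 to 228 FPKM, and highest in shNC DMSO, at 365 to 426.5 FPKM, and the GPX2 layer differs most between them.

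Added over the 8 GPX genes of the tables, the peroxidase transcripts amounted to 224.5 ± 5.19 FPKM in shNRF2 GNA and 247.5 ± 4.37 FPKM in shNRF2 DMSO, and to 339.5 ± 15.1 FPKM in shNC GNA and 399 ± 31.1 FPKM in shNC DMSO (SD, n = 3 each). GPX2 was 21.9% ± 0.448 of this sum in shNRF2 GNA and 28.1% ± 0.692 in shNRF2 DMSO, and 41.2% ± 1.44 in shNC GNA and 49.0% ± 0.645 in shNC DMSO. GPX4, the enzyme that reduces lipid hydroperoxides in membranes, took the largest share in shNRF2, with 46.2% ± 0.877 under GNA and 43.3% ± 0.538 in DMSO, against 34.1% ± 0.987 in shNC under GNA and 30.01% ± 1.38 in shNC in DMSO.

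In CPM, GPX4 itself was lower in shNRF2 than in shNC, with a log2 fold change of -0.17 ± 0.056 under GNA (edgeR adjusted p = 0.0229) and of -0.21 ± 0.056 in DMSO (edgeR adjusted p = 0.00365). Its larger share therefore stands beside a lower level and a lower sum. GPX5, GPX6 and GPX7 had at most 1 count in any library. The ratio of GPX2 to GPX1 within a library was 0.827 ± 0.036 in shNRF2 GNA and 1.14 ± 0.060 in shNRF2 DMSO, and 1.99 ± 0.159 in shNC GNA and 2.65 ± 0.087 in shNC DMSO, with an exact permutation p of 0.1 in each of the 4 comparisons (n = 3 each, the smallest possible).

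Of the genes for cleavage inside the cell, CHAC1 (chromosome 15, 40952962 to 40956519, plus strand) had few counts: 85, 95 and 78 in shNRF2 GNA and 27, 29 and 31 in shNRF2 DMSO, and 51, 68 and 75 in shNC GNA and 11, 8 and 2 in shNC DMSO. It reached the count minimum of the filter in 10 of the 12 libraries. On the CPM scale its means were 5.74 ± 0.839 in shNRF2 GNA and 2.11 ± 0.335 in shNRF2 DMSO, and 4.16 ± 0.468 in shNC GNA and 0.460 ± 0.314 in shNC DMSO (SD, n = 3 each). The groups of each pair compared did not overlap.

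CHAC1 rose with GNA by 1.45 ± 0.244 on the log2 scale in shNRF2 (edgeR adjusted p = 3.1e-05) and by 3.16 ± 0.322 in shNC, with a 95% interval of 2.42 to 3.91 (edgeR adjusted p = 1.82e-08). In DMSO it was higher in shNRF2 than in shNC by 2.18 ± 0.361 (edgeR adjusted p = 2.79e-05). Under GNA the difference was 0.46 ± 0.219, with an interval of -0.048 to 0.96 (edgeR adjusted p = 0.131).

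Mean CHAC1 went from 2.11 CPM in DMSO to 5.74 CPM with GNA in shNRF2, and from 0.460 to 4.16 CPM in shNC. On the log2 scale its response was smaller in shNRF2, with a difference of -1.72 ± 0.430 (edgeR adjusted p = 0.0136). This call rested on the lowest library: without shNC DMSO 3, which had 2 counts, the difference was -1.29 (edgeR adjusted p = 0.0665). On log2(FPKM + 0.1) it was -1.49 (limma adjusted p = 0.0768), and on log2(FPKM + 1) it was -0.40 (limma adjusted p = 0.184).

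CHAC2 (chromosome 2, 53767792 to 53775196, plus strand), which cleaves glutathione more slowly than CHAC1, moved the other way with GNA. It had 8.60, 9.06 and 8.25 CPM in shNRF2 GNA and 13.4, 14.3 and 9.51 CPM in shNRF2 DMSO. In shNC it had 12.6, 9.69 and 9.21 CPM with GNA and 17.8, 17.7 and 17.4 CPM with DMSO. The GNA libraries lay below the DMSO libraries in both lines, narrowly so in shNRF2. CHAC2 fell by 0.52 ± 0.141 on the log2 scale with GNA in shNRF2 (SE, edgeR adjusted p = 0.00469) and fell by 0.75 ± 0.132 in shNC (edgeR adjusted p = 6.91e-05).

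Between the lines CHAC2 was lower in shNRF2 in DMSO, at -0.50 ± 0.131 on the log2 scale (edgeR adjusted p = 0.00363), and differed by -0.27 ± 0.142 under GNA, with a 95% interval of -0.60 to 0.054 (edgeR adjusted p = 0.166). CHAC2 lies within the span of ASB3 on the opposite strand, and ASB3 passed in none of the 4 contrasts. The ratio of CHAC1 to CHAC2 within a library was 0.424 ± 0.052 in shNRF2 GNA and 0.114 ± 0.040 in shNRF2 DMSO, and 0.261 ± 0.068 in shNC GNA and 0.0166 ± 0.0112 in shNC DMSO. CHAC2 was thus the higher of the pair per length in every library. Each of the 4 comparisons of this ratio had an exact permutation p of 0.1, the smallest possible with n = 3 each.

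GGT1, whose product cleaves glutathione at the cell surface (chromosome 22, 24583750 to 24629005, plus strand), had 4.68, 5.32 and 5.23 CPM in shNRF2 GNA and 5.20, 5.74 and 5.596 CPM in shNRF2 DMSO. In shNC it had 5.47, 5.80 and 6.45 CPM with GNA and 5.93, 4.48 and 4.75 CPM with DMSO. The groups overlapped in each contrast except that between the lines under GNA. GGT1 passed in none of the 5 comparisons, with log2 fold changes of -0.11 ± 0.167 with GNA in shNRF2, 0.23 ± 0.164 with GNA in shNC, -0.22 ± 0.164 between the lines under GNA and 0.13 ± 0.167 in DMSO. Its 95% intervals reached changes of 0.61 upward and of -0.59 downward in these 4, so moderate changes were not detectable at 62 to 105 counts a library.

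GGT1 belongs to a family with pseudogenes, and whether reads were split between them was not tested. GGT4P averaged 458 counts in shNRF2 GNA, 346 in shNRF2 DMSO, 596 in shNC GNA and 374 in shNC DMSO. GGT8P averaged 287, 205, 592 and 397 counts in those groups, and GGT1 only 77, 76.3, 91.7 and 77 counts. Both copies rose with GNA in both lines, GGT4P by 0.28 ± 0.097 in shNRF2 and 0.66 ± 0.094 in shNC, and GGT8P by 0.37 ± 0.104 in shNRF2 and 0.57 ± 0.091 in shNC, on the log2 scale. GGT8P was also lower in shNRF2 than in shNC, with log2 fold changes of -1.01 ± 0.094 under GNA and -0.81 ± 0.101 in DMSO. GGT4P was lower in shNRF2 under GNA, at -0.35 ± 0.093 (edgeR adjusted p = 0.00591). In DMSO its log2 fold change was 0.0265 ± 0.099 (edgeR adjusted p = 0.871). The other family copies in the tables that were looked up, among them GGT2P, GGT3P, GGTLC1 and GGTLC2, had at most 7 counts in any library. SNRPD3 overlaps GGT1 on the same strand, and the value of GGT1 is given as uncertain.

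Per length, GPX2 and GPX1 were the 2 most abundant of the 10 transcripts in every group. GPX1 led in shNRF2 GNA, with 59.5 ± 3.23 FPKM against 49.2 ± 1.12 FPKM of GPX2. GPX2 led in shNRF2 DMSO with 69.7 ± 2.78 FPKM, in shNC GNA with 139.9 ± 5.37 FPKM and in shNC DMSO with 195 ± 15.8 FPKM. SLC7A11 and GSR came next in all groups, with SLC7A11 above GSR in shNRF2 GNA only, at 17.4 ± 0.679 and 15.8 ± 0.410 FPKM.

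GCLM moved most in rank. It held rank 8 in shNRF2 DMSO with 4.07 ± 0.132 FPKM, just below GCLC at 5.27 ± 0.232 FPKM, and rank 5 in shNC GNA with 11.7 ± 0.487 FPKM. CHAC1 was the lowest in both DMSO groups, at 1.02 ± 0.162 FPKM in shNRF2 and 0.214 ± 0.147 FPKM in shNC, and GGT1 was the lowest in both GNA groups. Neighbours in the order whose libraries overlapped were GSS and CHAC2 in shNRF2 DMSO and in shNC GNA, and GCLM and GSS in shNC DMSO. FPKM uses 1 fixed length per gene whatever transcript is made, so small gaps in this order are uncertain.

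Of 47 further genes of glutathione metabolism, covering transporters, cysteine synthesis, degradation, glutaredoxins, export and NADPH supply, 38 were tested. With GNA in shNRF2 10 rose and 9 fell, beside 16.7% and 17.0% of all genes tested, and with GNA in shNC 14 rose and 7 fell, beside 14.6% and 16.1%. Between the lines 2 were higher and 12 lower in shNRF2 under GNA, beside 12.8% and 13.3% of all genes, and 6 were higher and 15 lower in DMSO, beside 16.8% and 18.3%. Their median log2 fold changes were 0.051, -0.0093, -0.15 and -0.13 in the same order.

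Among the largest called rises with GNA were those of CTH and CBS, whose products make cysteine from homocysteine, and of SLC1A4. CTH, encoding cystathionine gamma-lyase, averaged 3.67 ± 0.518 CPM in shNRF2 GNA and 1.58 ± 0.318 CPM in shNRF2 DMSO, and 4.52 ± 0.200 CPM in shNC GNA and 1.10 ± 0.247 CPM in shNC DMSO. The log2 fold changes of CTH were 1.22 ± 0.241 in shNRF2 (edgeR adjusted p = 0.000217) and 2.04 ± 0.245 in shNC (edgeR adjusted p = 2.81e-07). CBS, encoding cystathionine beta-synthase, rose by 1.35 ± 0.243 in shNRF2 and by 1.30 ± 0.260 in shNC, and SLC1A4, encoding a neutral amino acid transporter, rose by 1.18 ± 0.149 in shNRF2 and by 1.48 ± 0.159 in shNC. All 3 passed in both lines, and for none did the difference of responses pass (edgeR adjusted p of 0.183 for CTH, 0.962 for CBS and 0.488 for SLC1A4).

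The largest called falls with GNA were those of SLC25A10, a mitochondrial dicarboxylate carrier, at -0.84 ± 0.278 in shNRF2 and -0.77 ± 0.272 in shNC, with 0.950 to 2.84 CPM in any library. PGD, an NADPH-producing enzyme of the pentose phosphate pathway, fell by 0.51 ± 0.041 on the log2 scale in shNRF2 and fell by 0.31 ± 0.041 in shNC. GGCT, the cyclotransferase that releases 5-oxoproline from gamma-glutamyl amino acids, fell like CHAC2, at -0.47 ± 0.112 in shNRF2 (edgeR adjusted p = 0.00173) and -0.60 ± 0.105 in shNC (edgeR adjusted p = 6.3e-05).

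Between the lines, GLRX, encoding the cytosolic glutaredoxin that removes glutathione from proteins, was lower in shNRF2, at -1.204 ± 0.055 on the log2 scale under GNA (edgeR adjusted p = 1.55e-15) and -1.21 ± 0.055 in DMSO (edgeR adjusted p = 1.82e-15). TXNRD1, thioredoxin reductase, was lower at -0.83 ± 0.043 under GNA and -0.91 ± 0.043 in DMSO. GPX3, the secreted peroxidase, was lower at -0.56 ± 0.105 under GNA and -1.04 ± 0.117 in DMSO. The largest called rises were those of ANPEP, an aminopeptidase, at 0.82 ± 0.242 under GNA and 0.62 ± 0.238 in DMSO, of SLC3A2 under GNA, given above, and of GGT7 at 0.66 ± 0.193 in DMSO. ANPEP and GGT7 had at most 5.88 CPM in any library.

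The response to GNA differed between the lines for 5 of the 38, 2 upward and 3 downward, where 3.58% of all genes differed upward and 3.24% downward. It was more positive in shNRF2 for IDH1 (0.37 ± 0.079, edgeR adjusted p = 0.00464) and ME1 (0.35 ± 0.082, edgeR adjusted p = 0.00943), both encoding cytosolic NADPH-producing enzymes. Both were lower in shNRF2 than in shNC, IDH1 at -0.16 under GNA and -0.52 in DMSO, and ME1 at -0.47 and -0.81. The response was more negative in shNRF2 for ABCC4, an efflux pump (-0.44 ± 0.084, edgeR adjusted p = 0.00154), and MAT2A, which makes S-adenosylmethionine (-0.30 ± 0.089, edgeR adjusted p = 0.04). It was also more negative for PGD (-0.21 ± 0.058, edgeR adjusted p = 0.03).

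**Figure D5:**
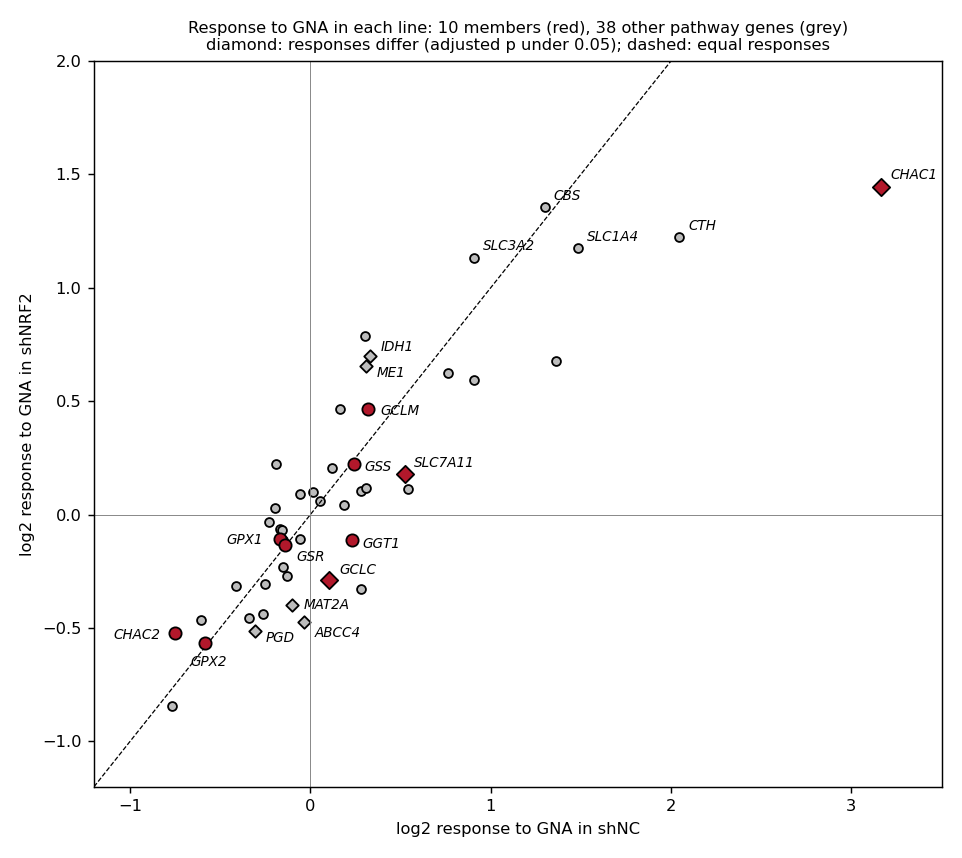
Log2 response to GNA in shNRF2 (vertical axis) against that in shNC (horizontal axis) for the 10 genes in red and 38 further pathway genes in grey. Diamonds mark genes whose responses differed at an adjusted p under 0.05, and the dashed line marks equal responses. SLC7A11, GCLC and CHAC1 lie below the line, while GCLM, GSS, GSR, GPX1 and GPX2 lie near it. GGT1 (-0.34) also lies below the line and CHAC2 (0.23) above it, and neither difference of responses passed.

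Over the 12 libraries, the 3 tested genes whose log2 CPM correlated best with each gene were named as a description. They share the 4 groups and the scaling, so between-group differences set most of each r. GPX2 was closest to AKR1C1 (Pearson r = 0.995), KIF3C (0.993) and APOL1 (0.993). GSR was closest to PTGR1 (0.993), INHBB (0.993) and AKR1B10 (0.992), and GCLM to F2RL2 (0.995), CYP4F11 (0.993) and RAP1GAP (0.986). SLC7A11 was closest to FGF2 (0.985), MAP2K4 (0.970) and RNF11 (0.956).

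CHAC1 was closest to PHYKPL (0.977), C1RL (0.973) and FSCN2 (0.968), and CHAC2 to VAMP3 (0.961), EMSY-DT (0.950) and JPT1 (0.947). GPX1 was closest to RPSAP47 (0.979), RPL24 (0.971) and QDPR (0.964), and GSS to ZNF699 (0.973), UNC13B (0.956) and MARCHF8 (0.951). GCLC was closest to SYBU (0.942), ADAM12 (0.940) and CHML (0.938). GGT1, which no comparison called, had the lowest best values, with MIR23AHG (0.845), TSPAN11 (0.840) and DZIP1L (0.831).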

How the data were processed

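Total RNA from 12 libraries of an established cell line was sequenced, and the 4 groups of 3 follow the cell type and treatment labels. The authors deposited raw counts per gene and FPKM values for 61510 genes. Per the submitters' processing notes GRCh38 and DESeq2 were used. For the aligner, the counting tool and its strand setting, and the annotation, nothing is given in the sources used. Each gene's deposited FPKM values corresponded to a single length, to within 0.001 of it, for 100% of 31942 genes. Single-cell sequencing named in the series design was not analysed here.

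Genes were filtered with filterByExpr (minimum count 10, minimum total 15), leaving 15653. After TMM scaling, edgeR 4.0.16 in R 4.3.3 (glmQLFit, glmQLFTest) was fitted with the 4 groups as coefficients, leaving 8 residual degrees of freedom. A call needs an adjusted p under 0.05 (Benjamini-Hochberg over all genes tested). The SE is the log2 fold change divided by the square root of F, and 95% intervals use 8 degrees of freedom. The test uses more, so an interval can include 0 where the unadjusted p is under 0.05. GSR with GNA in shNRF2 is such a case (edgeR unadjusted p = 0.0429). Levels are CPM on TMM-scaled totals; levels of different genes were compared in FPKM only. The steps were tested on simulated data, for GNA in shNC and for the difference of responses only. No result here rests on that test. Alternatives were DESeq2 1.42.0, limma 3.58.1 on log2(FPKM + 1) and log2(FPKM + 0.1), other scalings and filters, a replicate block, a fit of the compared groups alone, and each library left out.

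The 10 genes, the 47 further genes and the markers were chosen with earlier results of these data known. The text names all 10, 6 fixed further genes (1 of them is not reported here), the 2 largest called changes each way per comparison among the further genes, and for each of the 10 the 3 most correlated genes with an approved symbol (log2 CPM, prior count 1). PGD as the remaining called difference, CHURC1, ASB3, SNRPD3, SLC7A11-AS1 and the GGT1 copies were added after their values were seen.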

Additional observations from a re-analysis of the deposited data

Results flagged for a closer look

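Of the 10 genes, 3 had a response to GNA that differed between the lines in the edgeR test of the difference itself. SLC7A11 rose by 0.18 in shNRF2 and by 0.52 in shNC on the log2 scale, a difference of -0.35 (adjusted p = 0.00188). GCLC changed by -0.29 in shNRF2 and by 0.10 in shNC, a difference of -0.39 (adjusted p = 0.0117). CHAC1 rose by 1.45 in shNRF2 and by 3.16 in shNC, a difference of -1.72 (adjusted p = 0.0136), which rests on few counts in shNC DMSO and did not pass without library shNC DMSO 3.

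The same test passed for NFE2L2 and 5 of the 38 further genes tested, where 3.58% of all genes differed upward and 3.24% downward. NFE2L2, the hairpin's target, changed by -0.13 with GNA in shNRF2 and by 0.17 in shNC, a difference of -0.30 (adjusted p = 0.045). IDH1 rose by 0.70 in shNRF2 and by 0.33 in shNC, a difference of 0.37. ME1 rose by 0.65 in shNRF2 and by 0.31 in shNC, a difference of 0.35. ABCC4 averaged 73.2 CPM in shNRF2 GNA and 102 CPM in shNRF2 DMSO, and 80.9 CPM in shNC GNA and 83.02 CPM in shNC DMSO, a difference of log2 responses of -0.44. MAT2A changed by -0.40 in shNRF2 and by -0.10 in shNC, a difference of -0.30, and PGD by -0.51 in shNRF2 and by -0.31 in shNC, a difference of -0.21.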

How the results depend on the processing

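Over the alternatives, 830 of 850 values of the 10 genes kept their side of the threshold, 11 lost it and 7 gained it. The remaining 2 had no adjusted p in DESeq2. Among values called in either fit 0 reversed, but some values called in neither changed sign. For GCLC between the lines in DMSO they ran from -0.077 to 0.0082. With the replicate number as a block, GNA in shNC called 4 of the 10 higher and 2 lower, as without it, and no call among the 10 changed. Deviations from the group means correlated above 0.1 in 0 of 18 same-number pairs, and for 2 of 12 libraries the best match shared their number, so the numbers were not taken as pairs. Of the 10, shNRF2 against shNC under GNA gave 0 higher without a low-count filter (GSS, adjusted p = 0.0962) and 2 with limma on log2(FPKM + 1), where CHAC1 passed (adjusted p = 0.043). For GNA in shNC, library totals gave 3543 genes higher and 1542 lower, and limma on log2(FPKM + 1) and log2(FPKM + 0.1) 1430 and 1417 lower. For the difference of responses limma gave 301 and 274 genes higher, and on log2(FPKM + 0.1) 329 lower. The cause was not tested. Library totals shifted the median of all genes by 0.10 for GNA in shNC. Leaving out 1 library at a time, with fewer libraries in each fit, gave 2 to 4 of the 10 lower for GNA in shNC. For shNRF2 against shNC it gave 1 to 2 of the 10 higher in DMSO, and 0 to 1 higher and 5 to 6 lower under GNA. For the difference of responses it gave 2 to 3 of the 10 and 315 to 673 of all genes lower. On log2(FPKM + 1), limma gave CHAC1 0.95 with GNA in shNRF2, 1.34 with GNA in shNC and 0.74 for shNRF2 against shNC in DMSO. It gave GCLC -0.19 with GNA in shNRF2 and SLC7A11 -0.12 between the lines in DMSO. A pseudocount compresses low values by construction. Depth limits CHAC1 and GGT1 most.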
